A study of Homo sapiens with 2 samples.

Results

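The genes described here are the clustered histone genes of human cells, most of which are switched on when DNA is copied. They were chosen by gene symbol and not by their values, though with earlier results of these data known. The rule takes every gene whose current symbol is H1- followed by a number, or begins with H2AC, H2BC, H3C or H4C and a digit. The rule took 61 genes of the 18417 named on the array, with 9 of type H1, 14 of H2A, 17 of H2B, 8 of H3 and 13 of H4. Each of the 61 had exactly 1 probe set of its own. The symbols take in a few genes that are not replication-dependent in the strict sense. H1-10 is a replacement linker histone made at all times, H1-7 and H1-8 belong to male and female germ cells, and H2BC19P is a pseudogene. H4C14 and H4C15 encode the same protein, and their probe sets had identical deposited intensities in both arrays, so the 61 genes are at most 60 separate measurements.

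The cells were U251, an established human glioblastoma line, kept in high-glucose DMEM. The control group received DMSO and the other group 5 µM of the Gamitrinib G-TPP, an Hsp90 inhibitor tied to a cation that carries it into mitochondria, each for 6 h. Each group is 1 array, and the labels do not say how many cultures its RNA came from, so no replicate check, standard error or p-value exists for any difference below. "Higher" and "lower" describe the G-TPP array against the DMSO array, and how much 2 cultures of the same group would differ was not measured. The values are RMA intensities on a linear scale, and the number of arrays limits their precision. The median over all probe sets was 224.8 with DMSO and 215.5 with G-TPP. A gene counts as kept where its brighter array reached the median of all probe sets, an intensity of 239.2. As a mark of what a silent gene reads, the 95th percentile of 338 olfactory receptor genes was 172.9 with DMSO and 174.3 with G-TPP, called the floor here. The culture's label was checked against 12 astroglial and glioma markers, of which 10 were kept and 2, AQP4 and S100B, lay under the floor in both arrays. Their summed intensity was 25041 with DMSO and 19869 with G-TPP, and CD44 and VIM, the brightest, read 8013 and 7146 with DMSO and 7614 and 6494 with G-TPP. PDGFRA, SOX2 and SOX9 were 3.25-fold, 2.72-fold and 1.98-fold lower and SLC1A3 1.56-fold higher; their part in the histone values was not tested. The astroglial marker GFAP read 245.2 with DMSO and 231.5 with G-TPP, so it was kept through its DMSO value alone. Of 4 epithelial markers none was kept, and of the immune, endothelial and neuronal markers 2, 2 and 1 were kept. The kept endothelial genes, CLDN5 and CDH5, read 371.8 and 319.5 with DMSO and 327.9 and 304.8 with G-TPP, above GFAP. The kept immune genes were CD68 and TYROBP, while PTPRC, the general leukocyte marker, was under the floor with 34.8 and 32.9.

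Histones are the proteins around which DNA is wound. Pairs of H2A, H2B, H3 and H4 form the nucleosome core, and H1 binds the linker DNA between cores. A cell in S phase has to make new histones as fast as it makes new DNA, and it does so from many near-identical gene copies in clusters, which the locus body protein NPAT and the kinase CDK2 with cyclin E switch on. Messages of these copies end in a stem-loop held by SLBP instead of a poly(A) tail, and they are destroyed quickly when replication stops. Whether the labelling of the RNA was primed at poly(A) tails, which such messages lack, is not given in the sources used here. Copies also differ so little in sequence that a probe set may read more than 1 of them.

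Most clustered histone genes had lower intensities with G-TPP, by modest amounts. Of all 61 genes 54 lay below 0 in log2 difference (G-TPP minus DMSO) and 7 above, where 60.1% of the 18417 named genes lay below 0. A ratio of at least 1.5-fold lower was reached by 14 of the 61 (23.0%), against 2.28% of all named genes, and by none in the higher direction, against 4.79% (1.74% at 2-fold higher). Of the 14, H4C16 was under the floor in both arrays, and H1-6 and H2BC19P were in the G-TPP array. The count uses plain ratios of the intensities. Taken against the floor, H1-6 was at least 1.51-fold lower and H2BC19P at least 1.05-fold lower. H3C8 was the 1 gene at least 2-fold lower, where 0.353% of named genes were. The median log2 difference was -0.36 over the 61 genes and -0.06 over all named genes. Summed over the 61 probe sets, the intensity was 71584 with DMSO and 54463 with G-TPP.

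The brightness filter left 45 of the 61 genes and removed 16. Of the 45 kept genes 43 lay below 0 and 12 were at least 1.5-fold lower (26.7%). Among the 11091 kept genes of the array 55.9% lay below 0, 3.23% were at least 1.5-fold lower and 0.550% at least 2-fold lower. None of the 45 was 1.5-fold higher, where 7.37% of the kept genes were, and 2.80% were at least 2-fold higher. The median log2 difference was -0.46 over the 45 and -0.04 over the 11091. In 5 of the 45 the dimmer array was under the filter, so they were kept through their DMSO value alone. The 40 genes above the filter in both arrays had 38 below 0 and 11 at least 1.5-fold lower (27.5%). Of the 10136 genes of the array above it in both, 55.0% and 2.93% were. The 16 removed genes had a median of -0.15, with 11 below 0, and 9 of the 61 were under the floor in both arrays. In bulk RNA, fewer cells in S phase and less histone mRNA per S-phase cell cannot be told apart.

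**Figure D1:**
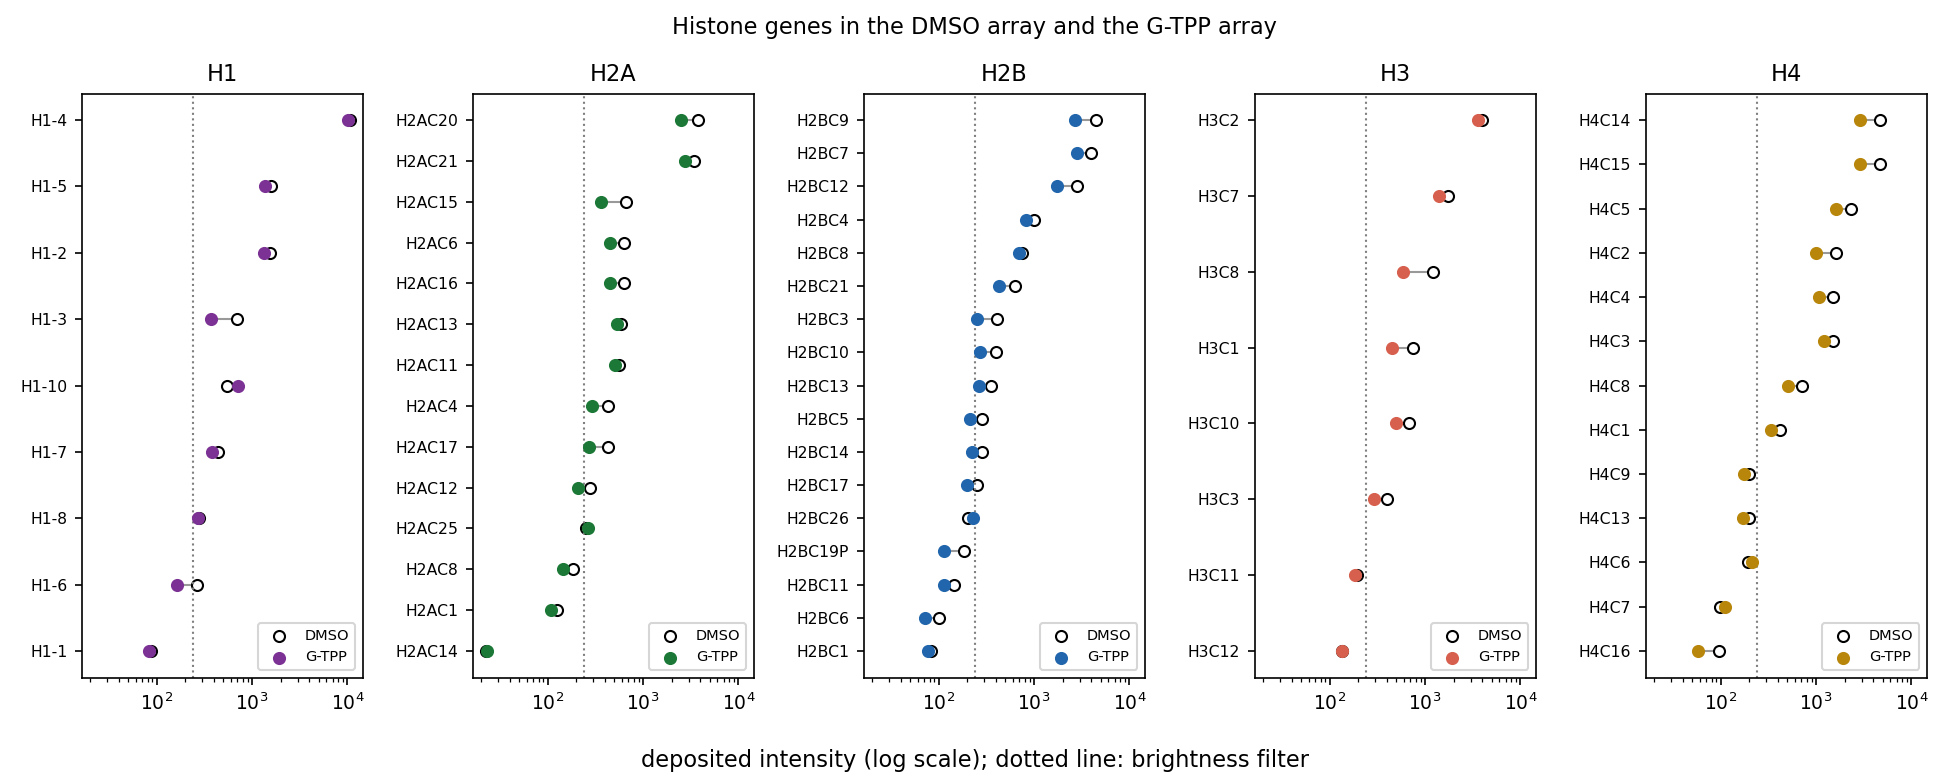
Deposited intensity (log scale) of each of the 61 histone genes in the DMSO array (open circles) and the G-TPP array (filled circles), by histone type and ordered by the DMSO value. Filled circles lie to the left of open ones for 54 of 61 genes, and the dotted line is the brightness filter at 239.2.

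Promoters are shown for the lowest kept gene of each type (H1-3, H2AC15, H2BC9, H3C8, H4C2). H1-4 is added as the brightest kept histone gene and H2BC8 as the kept H2B gene that differed least. The sequences are RefSeq's for GRCh38.p14, 250 bases before to 50 after the gene's start, 5′ to 3′ on the gene's strand. Capitals mark matches, on either strand, to 4 short motifs: TATAAA, the TATA box; CCAAT, the CCAAT box; ATTTGCAT, the octamer read by Oct-1 and long known from H2B genes; and AAACACA, the H1 box. All 7 genes lie on chromosome 6.
H1-3, chr6:26234938-26235237, minus strand: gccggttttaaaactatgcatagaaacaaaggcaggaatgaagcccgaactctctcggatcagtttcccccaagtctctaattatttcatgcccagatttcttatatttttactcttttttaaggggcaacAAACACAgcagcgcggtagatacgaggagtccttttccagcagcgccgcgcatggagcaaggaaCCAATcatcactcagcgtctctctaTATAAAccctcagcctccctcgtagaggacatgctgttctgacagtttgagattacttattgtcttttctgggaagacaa
H1-4, chr6:26156079-26156378, plus strand: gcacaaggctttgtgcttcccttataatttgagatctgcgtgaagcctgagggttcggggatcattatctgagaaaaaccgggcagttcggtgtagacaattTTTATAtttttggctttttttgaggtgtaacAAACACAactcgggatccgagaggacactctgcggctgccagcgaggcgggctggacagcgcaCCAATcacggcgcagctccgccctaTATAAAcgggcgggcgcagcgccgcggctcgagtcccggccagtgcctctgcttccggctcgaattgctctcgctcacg
H2AC15, chr6:27838326-27838625, minus strand: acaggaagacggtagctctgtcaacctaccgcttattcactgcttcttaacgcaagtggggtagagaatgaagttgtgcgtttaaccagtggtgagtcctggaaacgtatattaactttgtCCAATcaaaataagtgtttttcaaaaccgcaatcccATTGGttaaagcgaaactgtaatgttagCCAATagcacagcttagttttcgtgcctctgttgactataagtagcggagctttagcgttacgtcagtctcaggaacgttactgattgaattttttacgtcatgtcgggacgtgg
H2BC9, chr6:26251364-26251663, plus strand: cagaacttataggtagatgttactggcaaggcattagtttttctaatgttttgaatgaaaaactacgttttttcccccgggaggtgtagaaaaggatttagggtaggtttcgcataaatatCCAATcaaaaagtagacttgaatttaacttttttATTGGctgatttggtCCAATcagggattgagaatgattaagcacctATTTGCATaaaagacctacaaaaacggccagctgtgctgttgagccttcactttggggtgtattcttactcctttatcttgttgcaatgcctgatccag
H2BC8, chr6:26216639-26216938, minus strand: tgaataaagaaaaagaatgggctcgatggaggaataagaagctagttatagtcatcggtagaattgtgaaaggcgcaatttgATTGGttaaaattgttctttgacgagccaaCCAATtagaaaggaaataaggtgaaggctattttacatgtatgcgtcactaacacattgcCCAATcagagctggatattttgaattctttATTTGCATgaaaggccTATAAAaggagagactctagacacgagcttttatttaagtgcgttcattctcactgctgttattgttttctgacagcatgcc
H3C8, chr6:26271364-26271663, minus strand: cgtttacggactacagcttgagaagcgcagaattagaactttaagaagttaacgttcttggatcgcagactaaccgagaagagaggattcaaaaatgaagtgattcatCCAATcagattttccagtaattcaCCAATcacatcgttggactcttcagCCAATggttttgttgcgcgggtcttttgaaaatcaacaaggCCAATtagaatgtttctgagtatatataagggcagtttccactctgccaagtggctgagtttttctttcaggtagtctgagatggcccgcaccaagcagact
H4C2, chr6:26027234-26027533, minus strand: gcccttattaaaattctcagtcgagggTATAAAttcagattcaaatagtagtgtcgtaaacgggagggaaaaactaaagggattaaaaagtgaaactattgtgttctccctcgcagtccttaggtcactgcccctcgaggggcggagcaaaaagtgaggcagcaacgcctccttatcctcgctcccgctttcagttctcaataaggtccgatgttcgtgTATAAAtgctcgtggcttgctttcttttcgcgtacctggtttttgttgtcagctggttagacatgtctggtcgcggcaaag

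Promoters of 55 of the 61 genes were in the RefSeq table, and their motifs followed the histone type. TATAAA was in 35 of the 55 (63.6%), where 12.0% of all 27305 promoters of this length hold it. CCAAT was in 46 of the 55 (83.6%, against 35.7% of all promoters), and 35 held it more than once (63.6%, against 11.3%). All 13 H2A, all 16 H2B and all 6 H3 promoters held CCAAT, but only 3 of 11 H4 promoters did. The octamer was in 13 of 16 H2B and 10 of 13 H2A promoters and in none of the H1, H3 or H4 promoters, against 1.80% of all promoters. In 7 of 9 head-to-head H2A and H2B pairs both windows hold the same octamer site, so these 23 promoters hold 16 distinct sites. The windows overlap in all 9 pairs, so a TATAAA or CCAAT site may also be counted for both partners. Those matches were not reduced to distinct sites. AAACACA was in 7 of 9 H1 promoters, in 1 H2A promoter and in no H2B, H3 or H4 promoter, against 5.76% of all promoters. Different motifs overlapped in 0 of the 55. A match is a run of letters and not a shown binding site.

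H2BC9 and H2BC8, shown because their values differ, both hold 3 CCAAT matches and 1 octamer, and H2BC8 also holds 1 TATAAA, which H2BC9 lacks. Their log2 differences were -0.73 and -0.08. H1-3, shown as the lowest kept H1 gene, and H1-4, shown for its brightness, both hold 1 H1 box and 1 CCAAT match. H1-3 holds 1 TATAAA and H1-4 holds 2, and their log2 differences were -0.92 and -0.07. Over kept H2B genes the median was -0.51 for the 10 with the octamer and -0.42 for the 2 without. Over kept genes of all types it was -0.42 for the 25 with TATAAA and -0.48 for the 17 without.

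Linker histones had the median closest to 0 of the 5 types and the widest range. Of the 9 H1 genes 8 lay below 0, their median log2 difference was -0.20, and they ranged from -0.92 to 0.37. The width of this range rests on the replacement gene H1-10, since the next highest, H1-8, lay at -0.05. Without H1-7, H1-8 and H1-10 the median was -0.22 over 5 kept H1 genes. Over the 42 kept genes of all types then left it was -0.47. H1-3, a somatic subtype of replicating cells, went from 697.8 with DMSO to 369.2 with G-TPP, 1.89-fold lower. H1-2 went from 1535 to 1339 and H1-5 from 1581 to 1359, 1.15-fold and 1.16-fold lower. These 3 somatic subtypes thus lay on the same side, with H1-3 far below the other two.
H1-4 was the brightest histone gene and the 18th brightest of all kept genes with DMSO, at 10647, and read 10165 with G-TPP, 1.05-fold lower. H1-1, a subtype restricted to few tissues, was under the floor in both arrays (86.1 and 82.9). The testis gene H1-6 went from 263.1 to 164.5, which is at least 1.51-fold lower against the floor. H1-7 and H1-8, the germ cell genes outside the clusters, had log2 differences of -0.21 and -0.05.
H1-10, the replacement linker histone, was the only H1 gene above 0: it went from 550.6 to 714.0, 1.30-fold higher, and had the highest difference of all 61 genes.

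Of the 14 H2A genes 12 lay below 0, and their median log2 difference was -0.38, or -0.46 over the 11 kept. H2AC15 went from 668.3 to 363.5, 1.84-fold lower, and H2AC17 from 427.7 to 268.9, 1.59-fold lower. H2AC4 (432.6 and 289.0) and H2AC20 (3785 and 2528) stood at -0.58 each, just short of 1.5-fold. These 4 were the lowest of the type, and they span dim and bright copies.
H2AC21, the bright neighbour of H2AC20, went from 3456 to 2786, 1.24-fold lower. H2AC6, H2AC16 and H2AC12 were 1.41-fold, 1.37-fold and 1.34-fold lower, and H2AC13 and H2AC11 1.13-fold and 1.10-fold lower. H2AC25, in a small separate cluster on chromosome 1, read 249.3 and 264.3 and was the 1 kept H2A gene above 0. H2AC1, known from testis, and H2AC14 were under the floor in both arrays, and H2AC8 read 182.4 and 144.4.

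H2B genes had 16 of 17 below 0, a median of -0.42, and -0.44 over the 12 kept, all of which lay below 0. H2BC9, among the brightest copies, went from 4441 to 2683, 1.66-fold lower. H2BC12 went from 2822 to 1721, 1.64-fold lower, and the dimmer H2BC3 from 411.8 to 252.1, 1.63-fold lower. These are the 3 lowest kept H2B genes.
H2BC7 went from 3920 to 2853 (1.37-fold lower) and H2BC21 from 637.5 to 429.2 (1.49-fold lower). H2BC10, H2BC5 and H2BC13 were 1.48-fold, 1.34-fold and 1.33-fold lower, and H2BC17, H2BC14 and H2BC4 1.28-fold, 1.26-fold and 1.20-fold lower. H2BC8, at 739.1 and 697.5, was the kept H2B gene that differed least. The pseudogene H2BC19P, at 183.5 and 113.4, had a log2 difference of -0.70 and crossed the floor. The testis gene H2BC1 together with H2BC6 and H2BC11 stayed under the floor in both arrays. H2BC26, the neighbour of H2AC25, read 200.6 and 226.9 and was the 1 H2B gene above 0.

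H3 genes had a median of -0.38 over 8 genes, and all 6 kept ones lay below 0 (median -0.47). H3C8 went from 1198 to 585.8, 2.05-fold lower, the lowest of all 61 genes and the 53rd lowest of the 11091 kept genes. H3C1 went from 750.0 to 447.3, 1.68-fold lower. H3C2, the brightest H3 copy, went from 3944 to 3598, only 1.10-fold lower. These copies encode the same protein, the replicative H3.1, so copies for 1 protein covered a range from 1.10-fold to 2.05-fold lower.
H3C3, H3C10 and H3C7 lay between, at 1.39-fold, 1.37-fold and 1.24-fold lower. H3C11 read 192.7 and 184.2, and H3C12 was under the floor in both arrays.

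H4 genes had the lowest median of the kept genes of a type, -0.50 over 8 genes, all below 0, and -0.48 over all 13. With H4C14 and H4C15 counted once the kept median was -0.48 over 7, beside -0.47 for H3. H4C2 went from 1631 to 1008, 1.62-fold lower. The shared probe readings of H4C14 and H4C15 went from 4650 to 2904, 1.60-fold lower. H4C5 went from 2332 to 1628, 1.43-fold lower. The bright H4 copies thus were all lower with G-TPP.
H4C4 and H4C8 were both 1.39-fold lower, and H4C1 and H4C3 1.24-fold and 1.23-fold lower. Of the 5 H4 genes under the filter, H4C6 and H4C7 lay above 0 (0.14 and 0.15), H4C9 and H4C13 at -0.19 and -0.20, and H4C16, far from the clusters on chromosome 12, read 96.4 and 57.7, under the floor in both.

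**Figure D2:**
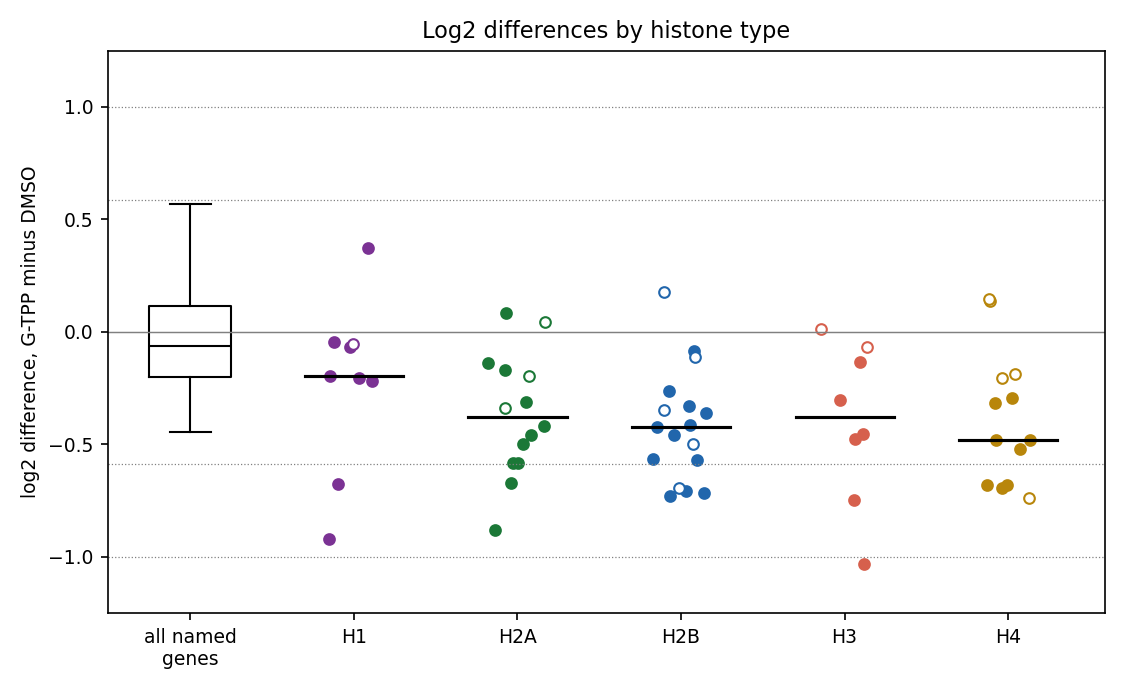
Log2 difference (G-TPP minus DMSO) of each histone gene by type, with filled circles for kept genes, open circles for genes under the filter and a line at each type's median over all its genes; dotted lines mark 1.5-fold and 2-fold. The box shows all 18417 named genes (median, quartiles and the 5th and 95th percentiles as whiskers), and the medians of the types run from -0.20 for H1 to -0.48 for H4.

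The low values were not limited to dim probe sets. The 9 histone genes with a mean log2 intensity of 11 or more all lay below 0, at a median difference of -0.58, while the 1311 named genes of that brightness had a median of 0.02. The 21 histone genes with a mean log2 intensity under 8 had a median of -0.20, beside -0.08 for the 8192 named genes there.

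**Figure D3:**
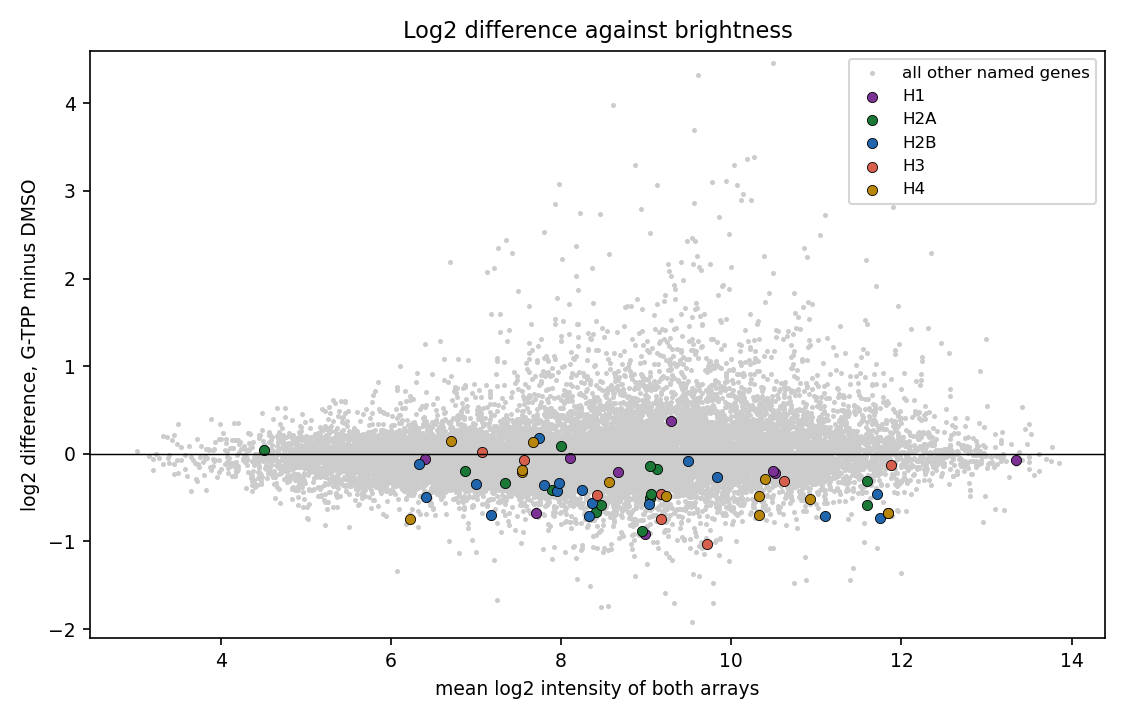
Log2 difference (G-TPP minus DMSO) against the mean log2 intensity of both arrays, with the histone genes coloured by type and all other named genes in grey. Histone genes lie mostly below the line at 0 over the whole range of brightness, and H1-4 lies at the far right near 0.

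The low values were spread over the large clusters. Genes were put in 1 group where neighbours start within 500000 bases of each other in GRCh38.p14. The largest group, on chromosome 6, held 31 of the genes with a median of -0.46, and the other two groups on that chromosome held 5 and 13 with medians of -0.35 and -0.33. The main group on chromosome 1, with H4C14, H4C15, H2BC21, H2AC20, H2AC21 and H2BC19P, had a median of -0.63 over these 6 genes. They count the identical readings of H4C14 and H4C15 as 2 genes and include the pseudogene H2BC19P, which was not kept. Over kept genes the median of this group was -0.58, beside -0.48, -0.42 and -0.42 for the groups on chromosome 6. The pair H2AC25 and H2BC26, elsewhere on chromosome 1, lay at 0.08 and 0.18.

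H2A and H2B genes often stand head to head and share the stretch between them, and 9 such pairs had both genes measured. The promoter windows overlapped in all 9 pairs. H2AC20 and H2BC21 had nearly the same log2 difference on their own probe sets, -0.58 and -0.57. H2AC17 and H2BC17 had -0.67 and -0.36, H2AC6 and H2BC4 -0.50 and -0.26, and H2AC13 and H2BC13 -0.17 and -0.42. The H2A gene was thus the lower one in some pairs and the H2B gene in others. The median gap between partners was 0.24 over the 9 pairs, and r across pairs was 0.52, which is a description over probe sets of the same 2 arrays. The 9 pairs include H2AC1, H2BC1, H2BC11 and H2AC14, which were under the floor in both arrays. Over the 4 pairs with both genes kept, r was 0.02.

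**Figure D4:**
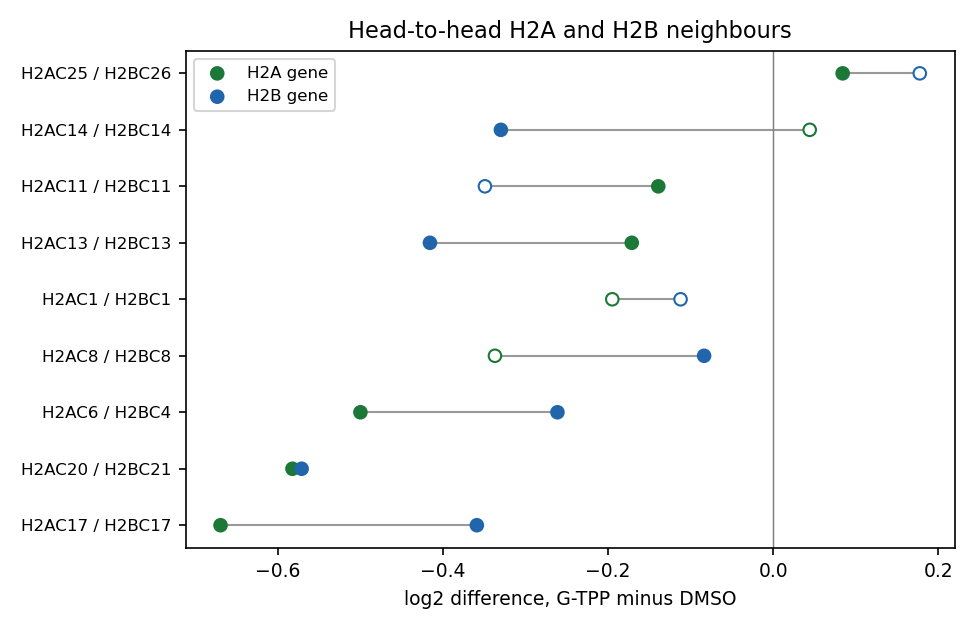
Log2 difference (G-TPP minus DMSO) of the H2A gene (green) and the H2B gene (blue) in 9 head-to-head pairs, filled where the gene was kept and open where it was under the filter. H2AC20 and H2BC21 nearly coincide at -0.58 and -0.57. In H2AC14 and H2BC14 the signs differ, but H2AC14 was under the floor in both arrays.

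Another 20 probe sets carry several symbols, at least 1 of which meets the rule, and were left out of all gene values because they name no single gene. All 20 lay below 0, with a median log2 difference of -0.31 and a range from -0.79 to -0.07. They hold 17 distinct pairs of intensities, so some repeat the same probes. Those naming H2AC20 lay at -0.29 and those naming H2BC21 at -0.24 and -0.17, nearer 0 than the genes' own -0.58 and -0.57. The set at -0.24 read 6247 with DMSO, where H2BC21's own read 637.5. Those naming H4C14 and H4C15 lay at -0.79, below the genes' own -0.68. The set naming H2AC15 lay at -0.50 and the set naming H2BC12 at -0.33, nearer 0 than these genes' own -0.88 and -0.71. The set naming H3C10 and H2AC13 lay at -0.43, between their own -0.46 and -0.17.

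Replacement variants, most of which are made outside S phase too, from ordinary polyadenylated messages, were not lower as a list. Of 12 genes asked for 9 were measured and 7 kept, with 6 of the 7 above 0 and a median log2 difference of 0.04. H2AZ1, the variant at gene starts, read 5487 with DMSO and 5655 with G-TPP, and H3-3B, which encodes the replacement histone H3.3, read 2979 and 3065. H2AX, the variant phosphorylated at DNA breaks, read 1726 and 1553, 1.11-fold lower, and was the 1 kept gene of the list below 0. H3-5, a near-copy of the H3.3 genes whose probes may read those too, read 3583 and 4050, 1.13-fold higher. MACROH2A1 and H2AZ2 had log2 differences of 0.05 and 0.01. H2AJ and MACROH2A2 were under the filter, and under the floor in the G-TPP array, with log2 differences of -0.42 and -0.10. H1-10 belongs both to this list and to the 61 genes. No value of this list reached 1.5-fold, and H3-3A was not analysed here. A further list of core histone genes outside the clusters' symbols came down to H3-4 (377.8 and 326.6) and H2BW1, which was under the floor in both arrays.

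Among factors that transcribe histone genes, those past 1.5-fold were the cyclin E genes. Of 10 kept genes 6 lay below 0, near the 55.9% of all kept genes, and the median was -0.02. At least 1.5-fold lower were 2 of the 10, against 3.23% of all kept genes. CCNE1, which encodes cyclin E1, went from 949.7 to 490.9 (1.93-fold lower), and CCNE2, for cyclin E2, from 1761 to 1044 (1.69-fold lower). CDK2, their kinase, went from 2327 to 2082, 1.12-fold lower. NPAT, the substrate of cyclin E with CDK2 at the histone clusters, went from 724.4 to 879.5, 1.21-fold higher. HINFP, the H4 promoter factor, and COIL, of Cajal bodies, had log2 differences of 0.12 and 0.10, and CASP8AP2 (FLASH), a partner of NPAT, -0.03. CRAMP1, a regulator of H1 genes, read 279.6 and 254.1.

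Genes for the 3′ end and decay of histone messages showed no shared direction. Of 21 kept genes 12 lay below 0 and 9 above, with a median of -0.00 and 1 at least 1.5-fold higher, against 7.37% of all kept genes. SLBP, the stem-loop binder, read 1169 and 1153. ZNF473, a zinc finger protein of histone pre-mRNA processing, went from 410.1 to 630.1 (1.54-fold higher). ERI1, the exonuclease that trims the stem-loop, and TUT7, a terminal uridylyltransferase, were 1.38-fold and 1.36-fold higher, and the cleavage factor gene CSTF2 was 1.19-fold lower.

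Histone chaperones, which carry new histones to DNA, lay on both sides of 0: 12 of 24 below, 12 above, with a median of -0.02. ASF1A, which hands H3 and H4 to the assembly factors, went from 2244 to 3687, 1.64-fold higher, the 1 gene of the list past 1.5-fold, where 7.37% of all kept genes were that much higher. ATRX was 1.46-fold higher, CDAN1 1.36-fold lower and the importin gene IPO4 1.34-fold lower.

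Of 46 kept DNA replication genes 30 lay below 0, where 55.9% of the kept genes of the array did, and their median was -0.11, against -0.04. Past 1.5-fold stood 1 lower and 1 higher, against 3.23% and 7.37% of all kept genes, so the counts at this fold do not set the list apart. PCNA, the sliding clamp, went from 2183 to 1538, 1.42-fold lower. POLE2, a polymerase epsilon subunit, went from 657.9 to 420.9 (1.56-fold lower), while MCM10 (1623 and 1086) stood at -0.58 and POLA2 at -0.52. CDC6, the origin licensing factor, went the other way, from 2050 to 3569 (1.74-fold higher). For reference, ACTB lay at -0.11 and GAPDH at -0.06 on the same log2 scale. Whether the share of cells in S phase differed between the cultures was not tested.

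**Figure D5:**
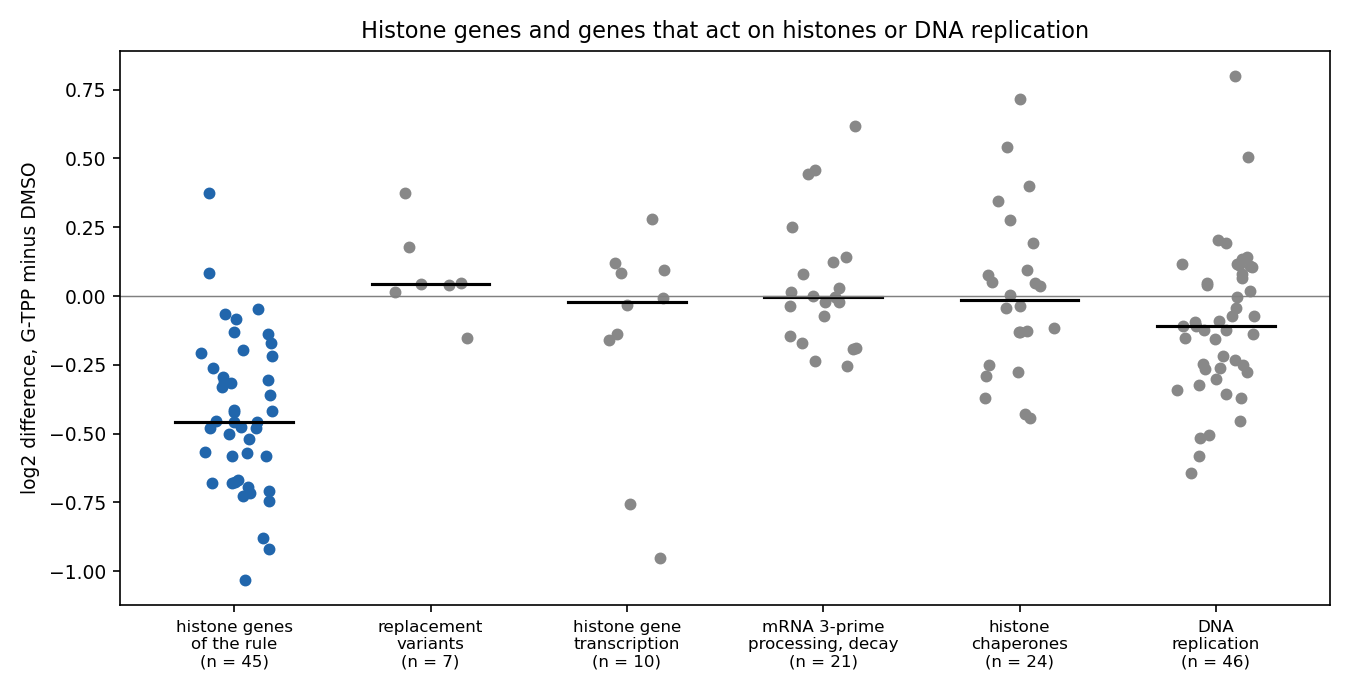
Log2 difference (G-TPP minus DMSO) of kept genes in the histone set and in 5 lists of genes around it, with a line at each median. The histone genes have a median of -0.46, while the medians of the lists run from -0.11 for DNA replication to 0.04 for replacement variants; H1-10 appears in both of the first columns.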

How the data were processed

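RNA of DMSO-treated and of G-TPP-treated U251 cells was hybridised to Affymetrix arrays, 1 for each. The authors deposited 1 intensity per probe set and array, made with RMA in Affymetrix Expression Console 1.1.2, per the submitters' processing notes. The scale is linear, as the values show; how it was reached, and which arrays were normalized together, is not given in the sources used here. RMA makes arrays alike in distribution, so a change in total RNA per cell is not visible.

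Of 33297 probe sets 19460 carry 1 symbol in the platform annotation, 1754 several and 12083 are unlisted; gene IDs of 19429 were found in the RefSeq table (GRCh38.p14), which gave current symbols. The probe set with the highest mean stood for a gene. Log2 was taken without a pseudocount. With 1 array per group no test was made; genes were counted at 1.5-fold and 2-fold. These counts used plain ratios of the intensities. A fold printed for a gene that fell into the floor was taken against it and given as a lower bound. The median calculation was checked on simulated data. Counts at 2-fold were made there without a check, and counts at 1.5-fold were not made there. Any of the 61 genes could be named, and of each other list the 4 kept genes with the largest absolute difference. SLBP, NPAT, CASP8AP2, CCNE1, CCNE2, PCNA, H2AX, H2AZ1, H3-3B, ACTB and GAPDH could always be named. MACROH2A1, MACROH2A2, H2AZ2, H2AJ, H2BW1, HINFP, COIL, CRAMP1, GFAP, CD44, VIM, AQP4, S100B and PTPRC were named after their values were seen. Members and lists were chosen with earlier results of these data known. Alternatives covered the filter, centring, normalization, probe set choice, pseudocounts of 16 and 64, members and the mean. Tables were made in pandas 2.3.3 and numpy 2.4.6 under Python 3.11.15, lowess curves with statsmodels 0.14.6 and plots with matplotlib 3.10.9.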

Additional observations from a re-analysis of the deposited data

How the results depend on the processing

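The count of histone genes at least 2-fold lower, 1 as reported, was 0 with the median of all kept genes set to 0, with a pseudocount of 64 and at a threshold of 3-fold. The count at least 1.5-fold lower, 12 as reported, ranged from 8 (with 23 genes left by a filter at the 75th percentile) to 14 (with no filter). The median over histone genes ranged from -0.48 (filter at the 75th percentile) to -0.41 (pseudocount of 64) where a filter was used, and was -0.36 over all 61 genes with no filter. Over the 15 alternatives the medians by type stayed below 0 in each, from -0.24 to -0.16 for H1 and from -0.54 to -0.46 for H4. The place of H4 as the lowest type did not hold throughout. H3 was lower with a filter at the 75th percentile (-0.5252, against -0.5181 for H4) and with means (-0.5243, against -0.5175). A median was taken as moved at a shift over 0.1. Of the 45 kept genes, 42 lay below 0 after lowess centring and after quantile normalization, where H1-8 (0.06 after lowess) lay above. No gene at 1.5-fold changed sign. Counts at 1.5-fold in the lists shifted by at most 1. Counting H4C14 and H4C15 once was added after seeing the data. Leaving out a replicate was not possible, and no paired analysis was possible because each group has 1 array. No signal here was set against background beyond the olfactory receptor floor.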
